A study of Mus musculus with 24 samples.

Results

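The 10 genes described here encode tau (Mapt), the related microtubule-associated proteins Map2, Map1a, Map1b and Map4, the tau kinases Gsk3a, Gsk3b and Cdk5, and the CDK5 activators Cdk5r1 (p35) and Cdk5r2 (p39). They were chosen as a named family, with earlier results of these data known, out of 55487 genes counted in each of 24 libraries, and all 10 passed the low-count filter in every comparison. The libraries are polyA RNA-seq of dissected hippocampus, cortex and cerebellum from wild-type mice that had their olfactory bulbs surgically removed (olfactory bulbectomy) or were sham-operated. There were 4 libraries after bulbectomy and 5 after sham for hippocampus, 3 and 5 for cortex, and 2 and 5 for cerebellum. The series title relates bulbectomy to Alzheimer's disease, in which tau forms tangles, and to depression. Genotype, operation and tissue are all the labels give for a library. They do not say whether libraries of a group came from separate animals, so p-values measure the spread between these samples, which may be technical.

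Tau binds along axonal microtubules and stabilises them, while MAP2 does so mainly in dendrites, MAP1A and MAP1B are large proteins of the mature and the growing neuron, and MAP4 is the form found in most other cell types. GSK3 kinases and CDK5 phosphorylate tau, which lowers its affinity for microtubules, and hyperphosphorylated tau aggregates in Alzheimer's disease. CDK5 is active only when bound to p35 or p39, which are made mostly in neurons. Counts per gene show RNA, not phosphorylation, and do not tell the splice forms of Mapt or Map2 apart. In bulk tissue, fewer cells of a type and less RNA per cell cannot be told apart.

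Depth was 3255661 (sham 1) to 138963332 (sham 4) reads assigned to genes per hippocampus library, 10073878 to 17052728 in cortex and 10400540 to 20230673 in cerebellum. The other hippocampus libraries had 8145624 to 9608811. No member had fewer than 120 reads in any library. Markers of cerebellar granule cells were summed to 1476 to 3857 CPM (reads per gene relative to the scaled library total) in cerebellum sham and to at most 112 CPM in any hippocampus or cortex library. Markers of cortical layers summed to 473 to 556 CPM in cortex sham and 128 to 288 CPM in hippocampus sham. Dentate granule cell markers summed to 156 to 262 CPM in hippocampus bulbectomy and 22.1 to 169 CPM in sham, the lowest value being that of sham 2. In hippocampus sham 1 and 2 the 10 markers of striatal medium spiny neurons, detected in all 9 hippocampus libraries, summed to 1994 and 2751 CPM, against 132 to 219.6 CPM in sham 3, 4 and 5. Member values without those 2 libraries stand beside the hippocampus results.

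Libraries also differed in how much of their RNA came from long genes. For each library the median deviation from the tissue mean was taken over 948 genes with more than 10 kb of exon and over 2265 genes with less than 3 kb, the members left out, and the difference is called the long-minus-short index (log2). It was 1.64 in cerebellum sham 1, 0.77 and 0.62 in hippocampus sham 1 and 4, 0.51 in cortex bulbectomy 1, and 0.40 and 0.30 in cortex sham 5 and 1. The other 18 libraries lay between -0.71 (cortex bulbectomy 4) and 0.03. Those 6 libraries were the same 6 that had the lowest Cdk5 level, a gene with 2.17 kb of exon. They included 5 of the 6 libraries with the highest Map2 level (16.4 kb of exon) and 4 of the 6 with the highest Gsk3b level. For Mapt they held 1 of the 6 highest and 1 of the 6 lowest. Values without these libraries, or corrected for a trend across exon lengths and GC content, are given beside the results they move, and the part of the index in the results was not tested otherwise.

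**Figure D1:**
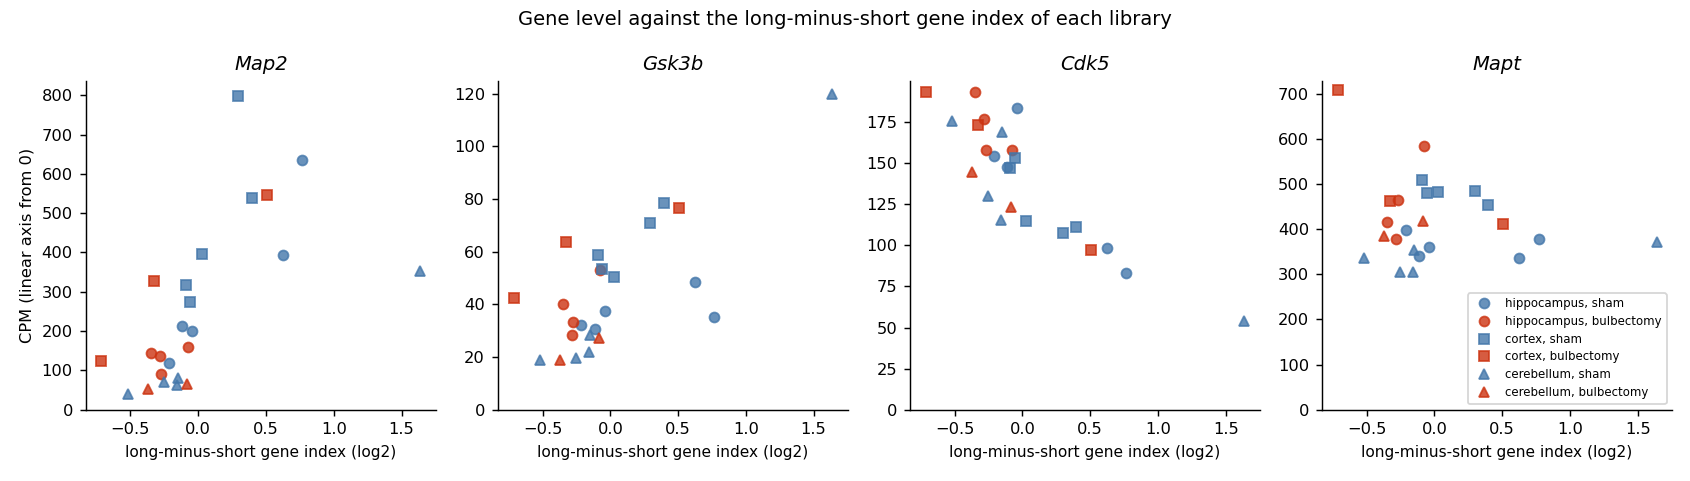
Level of 4 genes (CPM, linear axes from 0) in each of the 24 libraries against the library's long-minus-short gene index (log2), with circles for hippocampus, squares for cortex, triangles for cerebellum, blue for sham and red for bulbectomy. Cdk5 was lowest in cerebellum sham 1, at 53.8 CPM with an index of 1.64, where Gsk3b was highest at 119.8 CPM.

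Levels are compared between genes per kilobase of exon. In sham hippocampus Cdk5r2 (225 ± 77.2 CPM per kb, SD, n = 5) and Map1a (184 ± 54.0 CPM per kb) were the highest, and their ranges of mean ± SD overlapped. Gsk3a followed at 94.1 ± 27.3 CPM per kb, below Map1a without overlap. Gsk3a, Cdk5 (61.5 ± 19.2), Mapt (48.1 ± 3.42), Cdk5r1 (41.7 ± 6.42) and Map4 (38.9 ± 8.71 CPM per kb) formed a run in which each neighbour overlapped the next. Map1b (21.6 ± 8.07) and Map2 (19.0 ± 12.5 CPM per kb) overlapped each other, and Gsk3b was last at 3.75 ± 0.717 CPM per kb. In sham cortex Cdk5r2 (347 ± 56.3 CPM per kb) stood above Map1a (222 ± 36.6), and Map1a above Gsk3a (102 ± 17.9), without overlap. Mapt (64.0 ± 2.60), Cdk5r1 (59.0 ± 6.09) and Cdk5 (58.5 ± 9.88 CPM per kb) overlapped, as did Map1b (33.2 ± 7.75), Map4 (29.4 ± 1.66) and Map2 (28.3 ± 12.9 CPM per kb), and Gsk3b was again last at 6.34 ± 1.22 CPM per kb. In sham cerebellum Map1a (113 ± 27.4) and Cdk5r2 (97.7 ± 26.8 CPM per kb) overlapped at the top, and Map4 (63.8 ± 9.42 CPM per kb) took the fourth place, between Gsk3a (80.3 ± 25.7) and Cdk5 (59.4 ± 22.6 CPM per kb). The only neighbours there that did not overlap were Mapt (44.4 ± 3.97) and Cdk5r1 (19.1 ± 2.88 CPM per kb), with Map1b (13.8 ± 11.6), Map2 (7.41 ± 7.90) and Gsk3b (4.25 ± 4.45 CPM per kb) following. Summed over the 10 genes, the mean was 949 CPM per kb in sham cortex, 738 in hippocampus and 503 in cerebellum. The strand setting of the counting is not given in the sources used here, and 28.3% of the exon bases of Gsk3a overlap 9130221H12Rik on the opposite strand. Depending on that setting, reads in the overlap may have been left out as ambiguous, so values of Gsk3a are uncertain. The overlaps of Map1a with Ppip5k1 and of Map2 with Gm10558 cover 2.24% and 0.754% of their exon bases.

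**Figure D2:**
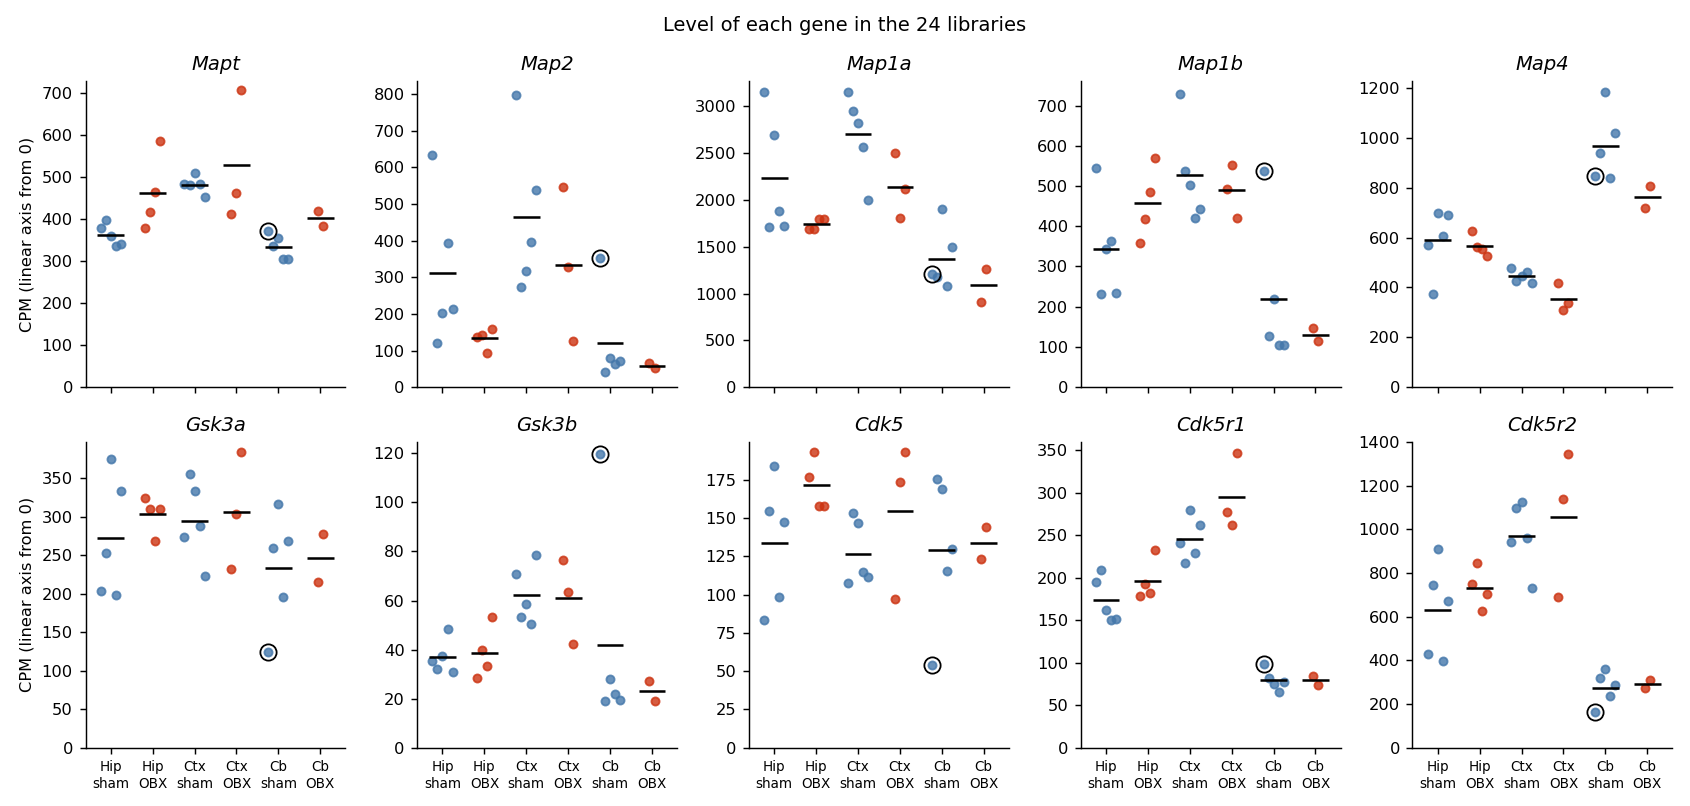
CPM of each gene in every library, on linear axes that start at 0 and differ between panels, for hippocampus (Hip), cortex (Ctx) and cerebellum (Cb) after the sham operation (blue) or bulbectomy (OBX, red), with a black bar at the group mean. The ringed point is cerebellum sham 1, which lies at 353 CPM for Map2 against 80.8 CPM or less in the other cerebellum sham libraries.

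Mapt differed little between libraries of one sham group. Its coefficient of variation was 7.10% in hippocampus, 4.06% in cortex and 8.94% in cerebellum, and 1.22%, 0.410% and 2.28% of the genes tested had a smaller one. The median over all genes, which were not matched to Mapt in level, was 29.5%, 19.7% and 33.1%. Map2 was at the other end of the family, with 65.9%, 45.5% and 107%. The cerebellar value rests on sham 1. Without it the coefficient was 26.5% for Map2, below the 38.9% of Map1b. Cdk5r1 was the second steadiest member in hippocampus at 15.4%, and Map4 in cortex and cerebellum at 5.64% and 14.8%. After bulbectomy Mapt varied more in hippocampus (461 ± 90.0 CPM, SD, against 362 ± 25.7 after sham) and cortex (528 ± 158 against 482 ± 19.6). In cerebellum it was at 401 ± 24.3 CPM (n = 2) against 334 ± 29.9 CPM.

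Between sham tissues, tau, the neuronal microtubule-associated proteins and the CDK5 activators were higher in cortex than in cerebellum, and Map4 was lower. Cdk5r1, Cdk5r2 and Map1a were also higher in hippocampus than in cerebellum. The kinases were not called as fitted here, though Gsk3a, Gsk3b and Cdk5 were between cortex and cerebellum with a length and GC trend removed. Tests used edgeR's quasi-likelihood model over the 15 sham libraries, with p-values adjusted over all 15142 genes by the Benjamini-Hochberg method, and a gene is called at an adjusted p under 0.05. Between cortex and cerebellum 7 of the 10 members were called, 6 higher in cortex and Map4 lower, where 34.7% of all genes tested were called. Between hippocampus and cerebellum 4 of 10 were called (background 28.4%), and between hippocampus and cortex 1 of 10 (background 3.3%). The sham groups did not overlap for 5, 3 and 3 members in the same order, where 25.6%, 18.1% and 6.8% of all genes did not overlap. The median log2 difference of the members was 0.86, 0.50 and -0.47, against -0.06, -0.05 and 0.02 over all genes. Without cerebellum sham 1 the members called were 8, 7 and 3, and DESeq2 called 7, 5 and 2. The calls over all genes moved too. They were 5251, 4296 and 500 with all libraries, and 4590 to 7743, 3727 to 6027 and 284 to 1101 on leaving out any 1 library. Whether the members gained more calls than other genes was not tested. Without hippocampus sham 1 and 2 the hippocampus comparisons called 4 members against cerebellum and 2 against cortex, and without sham 1 and 4 they called 3 and 0. These comparisons share their sham groups and are not independent of each other.

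**Figure D3:**
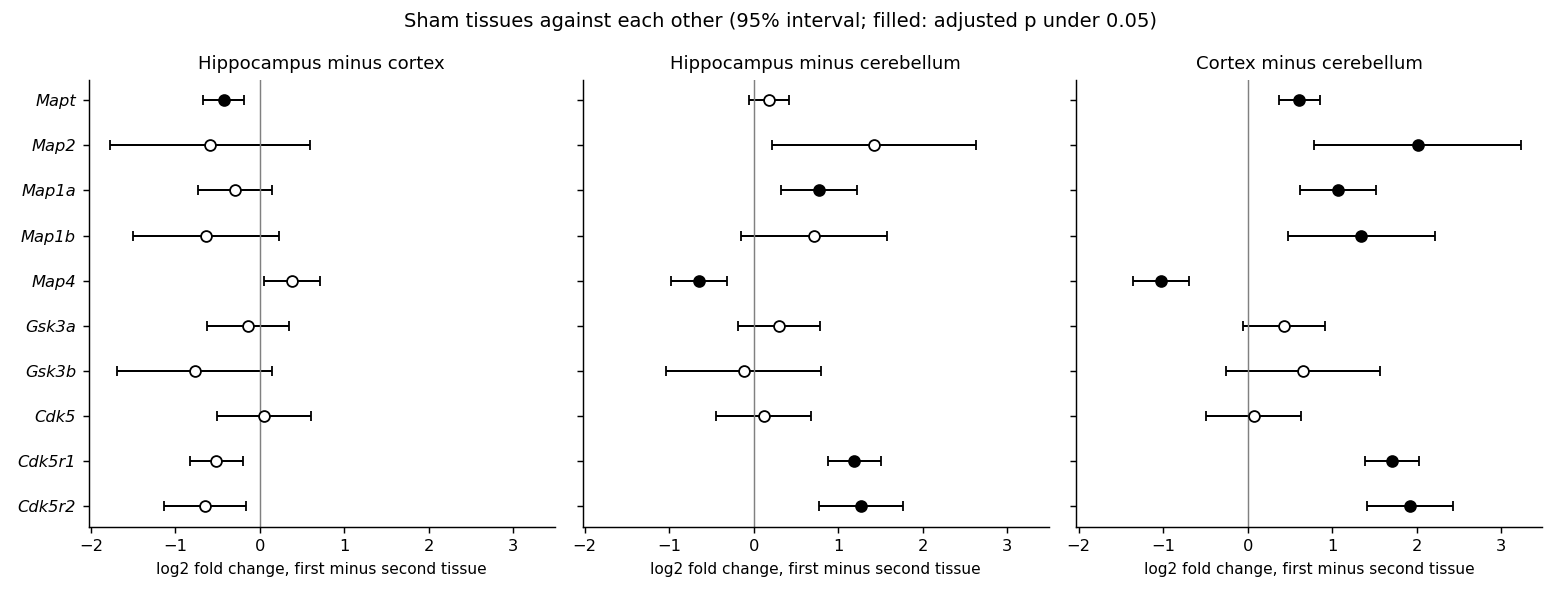
Log2 difference of each gene between sham tissues with its 95% interval (edgeR), filled where the adjusted p was under 0.05. Cdk5r1 and Cdk5r2 were called in both comparisons with cerebellum, at 1.71 and 1.92 for cortex minus cerebellum, and Map4 was called in both in the opposite direction.

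Among the structural proteins, Mapt (ENSMUSG00000018411, chromosome 11, 104231390 to 104332090, GRCm38) was at 484, 480.2, 509, 483 and 453 CPM in the 5 cortex sham libraries, 378, 397, 359.7, 335 and 342 CPM in hippocampus sham 1 to 5 and 372, 337, 354, 305 and 304 CPM in cerebellum sham 1 to 5. Every cortex library lay above every library of the other 2 tissues. The log2 difference of cortex from cerebellum was 0.61 ± 0.11 (SE, edgeR adjusted p = 4.59e-04), a factor of 1.53. The hippocampus minus cortex difference was -0.43 ± 0.11 (edgeR adjusted p = 0.0474). That call lies close to the threshold. Leaving out 1 of the 15 sham libraries kept the difference between -0.47 and -0.41, but only without hippocampus sham 2 (adjusted p = 0.0389) or cerebellum sham 1 (adjusted p = 0.0286) did the call remain, and without any other 1 library the adjusted p was 0.0574 to 0.122. Hippocampus and cerebellum differed by 0.18 ± 0.11 (95% interval -0.06 to 0.42, adjusted p = 0.262).

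Map2 (ENSMUSG00000015222, chromosome 1, 66175273 to 66442583), the dendritic protein, was at 798, 275, 318, 396 and 539 CPM in cortex, 635, 119.9, 202, 393 and 214 CPM in hippocampus and 353, 41.0, 80.8, 63.3 and 71.4 CPM in cerebellum. Cerebellum sham 1 stands apart from the other 4 cerebellum libraries, and the cortex and cerebellum groups overlap only through it. Cortex exceeded cerebellum by 2.01 ± 0.58 (edgeR adjusted p = 0.0126) and by 2.94 without cerebellum sham 1. Hippocampus differed from cerebellum by 1.42 ± 0.57 (adjusted p = 0.0749), by 2.37 without cerebellum sham 1 (adjusted p = 0.00143), and by 1.63 with the replicate numbers as a block (adjusted p = 1.97e-04). Without hippocampus sham 1 and 4 the same difference was 0.58 (adjusted p = 0.513).

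Map1a (ENSMUSG00000027254, chromosome 2, 121289600 to 121310832), the MAP1 form of mature neurons, was at 3155, 2951, 2819, 2569 and 1997 CPM in cortex, 3156, 1707, 2696, 1883 and 1723 CPM in hippocampus and 1212, 1178, 1903, 1082 and 1494 CPM in cerebellum. It was higher than in cerebellum by 1.07 ± 0.21 in cortex (edgeR adjusted p = 8.38e-04) and by 0.77 ± 0.21 in hippocampus (adjusted p = 0.0106). The second call was lost without hippocampus sham 1 and 4, at 0.62 (adjusted p = 0.0522). Map1b (ENSMUSG00000052727, chromosome 13, 99421446 to 99516540), the form of growing neurites, was at 729.7, 538, 503, 420.5 and 442 CPM in cortex, 544, 230.4, 345, 363 and 234 CPM in hippocampus and 538, 127, 219.7, 106 and 106 CPM in cerebellum. Cerebellum sham 1 was again the highest of its group. Cortex exceeded cerebellum by 1.35 ± 0.41 (adjusted p = 0.0178), and by 2.0 without cerebellum sham 1. For hippocampus against cerebellum the difference was 0.71 ± 0.41 (adjusted p = 0.222), which became 1.38 without that library (adjusted p = 5.88e-04) and 0.92 with the replicate block (adjusted p = 0.00768).

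Map4 (ENSMUSG00000032479, chromosome 9, 109931460 to 110083955), the form of non-neuronal and dividing cells, ran against the other members. It was at 846, 939, 1184, 840.4 and 1021 CPM in cerebellum, 571, 374, 699, 607 and 692 CPM in hippocampus and 478, 425, 445, 462 and 418 CPM in cortex. Every cerebellum library exceeded every library of the other tissues, with a log2 difference of -1.03 ± 0.16 for cortex minus cerebellum (edgeR adjusted p = 8.14e-05) and -0.65 ± 0.16 for hippocampus minus cerebellum (adjusted p = 0.00474). The hippocampus minus cortex difference was 0.38 ± 0.16 (adjusted p = 0.275). Glial markers differed between the same tissues, not all in the direction of Map4. Astrocyte markers summed to 5334 to 7132 CPM in cerebellum, 3295 to 5629 CPM in hippocampus and 3686 to 4676 CPM in cortex, and oligodendrocyte markers to 4129 to 4692, 3613 to 6498 and 1471 to 2134 CPM. Microglia markers were lowest in cerebellum, at 233 to 703 CPM, against 901 to 1851 CPM in hippocampus and 987 to 1633 CPM in cortex. Gene by gene, oligodendrocyte markers were lower in cortex than in cerebellum (9 of 9, median -1.10). For hippocampus minus cerebellum 7 of 9 were positive (median 0.37), opposite to Map4. Astrocyte markers were negative in 6 of 8 against cerebellum in both cortex (median -0.61) and hippocampus (median -0.76). The part of glial markers in the Map4 levels was not tested.

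The kinases showed no called difference between sham tissues in the fit of all 15 sham libraries with no correction or block. With the length and GC trend removed all 10 members were called for cortex minus cerebellum. The kinases were at 0.69 for Gsk3a, 0.75 for Gsk3b and 0.38 for Cdk5 (edgeR adjusted p = 7.65e-06, 0.0287 and 0.0400). Gsk3a was also called for hippocampus minus cerebellum (0.38, adjusted p = 0.00258). Of 118 other genes of the pathway, 41 were called higher and 13 lower in cortex than in cerebellum with the trend removed, against 29 and 14 without that correction. Gsk3a (ENSMUSG00000057177, chromosome 7, 25228258 to 25237851) was at 295 ± 52.0 CPM in cortex, 273 ± 79.0 CPM in hippocampus and 233 ± 74.7 CPM in cerebellum (SD, n = 5 each), with adjusted p-values of 0.158 to 0.868 by edgeR. Gsk3b (ENSMUSG00000022812, chromosome 16, 38089001 to 38246084), the paralog most studied as a tau kinase, was at 70.8, 53.3, 58.8, 50.3 and 78.6 CPM in cortex, 35.4, 32.2, 37.5, 48.6 and 30.7 CPM in hippocampus and 119.8, 19.0, 28.2, 22.1 and 19.6 CPM in cerebellum. All cortex libraries lay above all hippocampus libraries, and 4 of the 5 cerebellum libraries lay below all others. With all libraries the cortex minus cerebellum difference was 0.65 ± 0.43 (adjusted p = 0.265) and the hippocampus minus cortex difference -0.77 ± 0.43 (adjusted p = 0.498). Without cerebellum sham 1, the only library to put Gsk3b above the cortex range, the 3 differences were 1.56 for cortex minus cerebellum, 0.81 for hippocampus minus cerebellum and -0.75 for hippocampus minus cortex (adjusted p = 1.77e-06, 0.00178 and 0.00957, edgeR).

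Cdk5 (ENSMUSG00000028969, chromosome 5, 24418241 to 24423530) was at 108, 153, 147, 115 and 111 CPM in cortex, 83.1, 154, 184, 98.1 and 147 CPM in hippocampus and 53.8, 175, 169, 116 and 129.9 CPM in cerebellum, and the 3 ranges overlap. The cortex minus cerebellum difference was 0.07 ± 0.26 with a 95% interval of -0.49 to 0.63 (edgeR adjusted p = 0.872), so a difference of up to a factor of 1.54 lies inside the interval. Its activators differed several-fold between the same libraries. Cdk5r1 (ENSMUSG00000048895, chromosome 11, 80477023 to 80481184) was at 241, 217, 279.5, 229 and 262 CPM in cortex, 195, 209, 162, 150.5 and 152 CPM in hippocampus and 98.5, 81.7, 75.2, 65.9 and 76.8 CPM in cerebellum, 3 ranges that do not overlap. It was 3.27-fold higher in cortex than in cerebellum (1.71 ± 0.15 on the log2 scale, adjusted p = 1.83e-07) and 2.28-fold higher in hippocampus (1.19 ± 0.15, adjusted p = 1.11e-05). Cdk5r2 (ENSMUSG00000090071, chromosome 1, 74854934 to 74857732) was at 941, 1096, 1127, 962 and 729 CPM, 428, 745, 908, 399 and 674 CPM and 164, 317, 359, 239 and 288 CPM in the same order. It was 3.78-fold higher in cortex (1.92 ± 0.24, adjusted p = 8.74e-06) and 2.41-fold higher in hippocampus (1.27 ± 0.23, adjusted p = 5.47e-04) than in cerebellum. Hippocampus minus cortex missed the threshold for both, at -0.52 ± 0.15 (adjusted p = 0.0677) and -0.65 ± 0.23 (adjusted p = 0.173). Cdk5r1 passed it without hippocampus sham 1 and 2, at -0.71 (adjusted p = 0.0211), and missed it without sham 1 and 4, at -0.53 (adjusted p = 0.159).

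Pan-neuronal markers summed to 5328 to 6642 CPM in cortex sham, 4061 to 5567 CPM in hippocampus sham and 4215 to 5979 CPM in cerebellum sham, ranges that overlap. Gene by gene, 9 of 10 were lower in hippocampus than in cortex, with a median of -0.45. Of these 1 was called (3.3% of all genes were), Rbfox3 at -0.74 ± 0.18 (edgeR adjusted p = 0.0264). Positive differences from cerebellum numbered 6 of 10 for cortex (median 0.36) and 5 of 10 for hippocampus (median 0.03). Their part in the member differences was not tested. Without hippocampus sham 1 and 2 the hippocampus minus cerebellum differences were 0.66 for Map1a, -0.48 for Map4, 1.01 for Cdk5r1 and 1.32 for Cdk5r2, all 4 called. They were 0.10 for Mapt, 1.19 for Map2, 0.56 for Map1b, 0.43 for Gsk3a, -0.055 for Gsk3b and 0.20 for Cdk5, not called. Against cortex they were -0.52 for Mapt and -0.71 for Cdk5r1, both called, and -0.83 for Map2, -0.41 for Map1a, -0.79 for Map1b, 0.53 for Map4, -0.014 for Gsk3a, -0.71 for Gsk3b, 0.13 for Cdk5 and -0.61 for Cdk5r2, not called. For hippocampus against cerebellum, same-numbered libraries deviated together in all 5 pairs, though hippocampus sham 4 correlated best with cerebellum sham 1. The block raised the members called there from 4 to 6, adding Map2 and Map1b. Of 118 other genes of the pathway it called 26 higher and 17 lower, against 19 and 15 without the block.

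Other genes of the pathway were followed in 7 lists, and their counts are to be read against the 34.7% and 28.4% of all genes called in the 2 comparisons with cerebellum. Of 25 other tau kinases, 11 were called higher in cortex than in cerebellum and none lower, led by Camk2a, the calcium-dependent kinase of excitatory synapses, at 4117 ± 353 against 126 ± 32.9 CPM (5.12 ± 0.23 on the log2 scale). The list median was 0.18, against -0.06 over all genes. In hippocampus 9 were higher and 1 lower than in cerebellum, the lower one being Brsk2, a kinase of neuronal polarity, at -0.39 ± 0.13 (edgeR adjusted p = 0.0335). Of 26 other microtubule-associated proteins and regulators, 9 were higher in cortex than in cerebellum and 2 lower. Dcx, the doublecortin of migrating young neurons, was at 3.77 ± 0.907 against 0.218 ± 0.282 CPM in cortex and cerebellum, a low level. Tppp3, a tubulin polymerisation protein, was at 24.8 ± 1.95 against 136 ± 44.5 CPM, and Stmn2, a tubulin-binding protein of growth cones, had a hippocampus minus cerebellum difference of -1.35 ± 0.17 (called). The median of this list was 0.26 between cortex and cerebellum.

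Of 12 tubulins, the subunits of microtubules, 3 were higher and 2 lower in cortex than in cerebellum, and 2 and 2 in hippocampus. Tubb2a was at 338 ± 27.0 against 186 ± 42.3 CPM in cortex and cerebellum, and Tuba8 at 23.5 ± 3.72 against 95.1 ± 28.4 CPM, with a list median of -0.03. Of 18 tau phosphatases, which remove the phosphates that these kinases add, 4 were higher and 3 lower in cortex, with Ppp2r2b, a regulatory subunit of PP2A, at 2.01 ± 0.26 and Ppp1cc, a catalytic subunit of PP1, at -1.45 ± 0.14 (list median 0.04). Among 9 CDK5 cofactors and calpain genes none was higher and 4 were lower in cortex than in cerebellum, the opposite direction to the 2 activators. All 9 differences were negative, with a median of -0.48. Cdk5rap2, a centrosomal protein, led them at -1.70 ± 0.28 (edgeR adjusted p = 1.76e-04). Of 16 GSK3 regulators 2 were lower and none higher, with Axin1, a scaffold of the complex in which GSK3 acts on beta-catenin, at -0.56 ± 0.14, and a list median of -0.17. Without cerebellum sham 1, 5 were higher and 3 lower. Of 12 tau chaperones and modifying enzymes 2 were higher and 1 lower (list median 0.32), with the HSP90 co-chaperones Fkbp5 at 1.35 ± 0.19 and Fkbp4 at -1.22 ± 0.20. Without cerebellum sham 1 the phosphatase counts were 9 higher and 3 lower and the chaperone counts 4 and 2. Between hippocampus and cortex 5 of the 118 list genes were called (4.24%, against 3.3% of all genes), among them Tppp3 (1.34 ± 0.22), the tau kinase Mark1 (-0.72 ± 0.18) and Ppme1, an enzyme that demethylates PP2A (-0.59 ± 0.15).

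After bulbectomy no member was called in any of the 3 tissues by edgeR with all libraries and no correction. In hippocampus 0 of 10 passed, where 1.55% of the 13985 genes tested did. In cortex 0 of 10 passed (background 0.0202% of 14847 genes) and in cerebellum 0 of 10 (background 0.0131% of 15295). At an unadjusted p under 0.05 there were 2 members in hippocampus, Mapt and Map2, where 2794 of 13985 genes passed the same limit, and 0 in cortex and cerebellum. DESeq2 called Map2 in hippocampus, where it called 6.82% of all genes, and no member elsewhere. With the length and GC trend removed edgeR called Map1b in hippocampus, where it called 3.27% of all genes. Counts over all genes moved with single libraries: hippocampus gave 217 called genes with all libraries, 30 without bulbectomy 2 and 477 without sham 2, cortex gave 3 and 573 without bulbectomy 1, and cerebellum gave 2 and 36 without sham 1. The members called stayed at 0 in each of these. The bulbectomy and sham groups did not overlap for 0 members in hippocampus (background 9.47%), for 1 in cortex (background 3.59%), and for 2 in cerebellum (background 10.9%). The median log2 difference of the members was 0.19 in hippocampus, -0.003 in cortex and -0.19 in cerebellum, against 0.02, 0.01 and -0.06 over all genes.

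**Figure D4:**
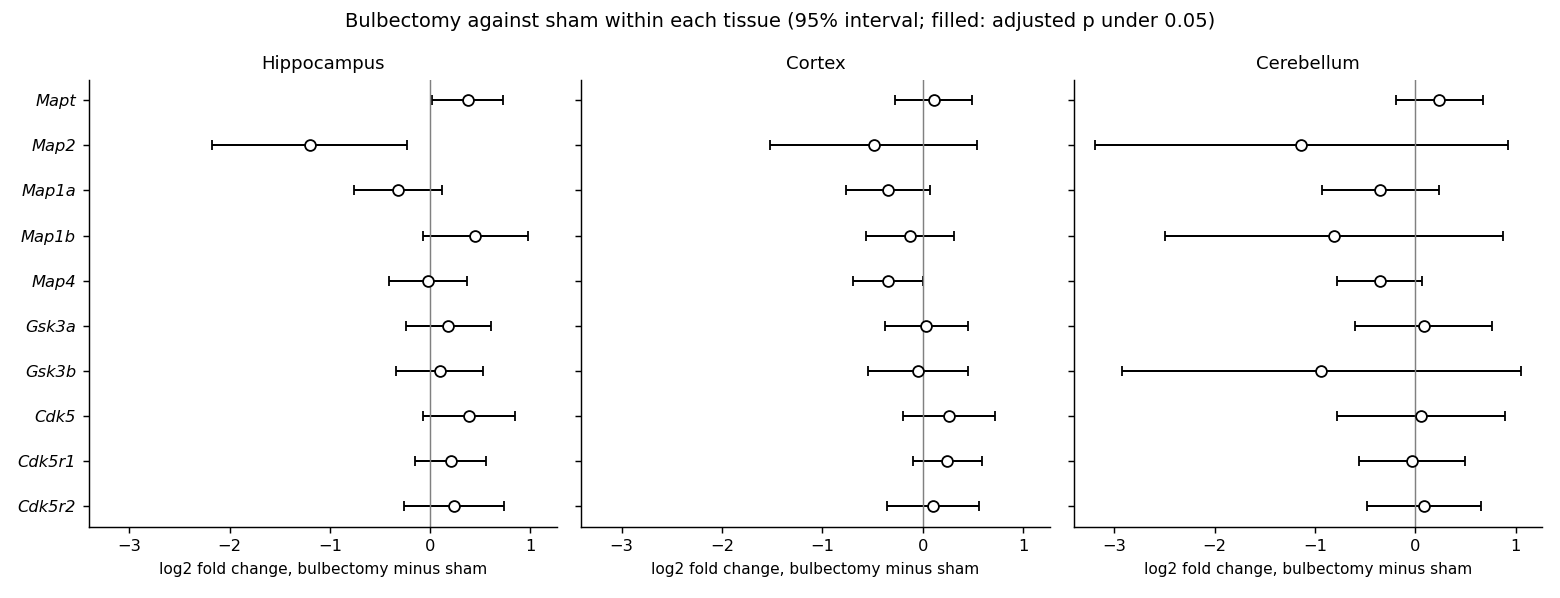
Log2 difference, bulbectomy minus sham, of each gene in the 3 tissues with its 95% interval (edgeR); no point is filled because no adjusted p was under 0.05. The intervals of Map2, Map1b and Gsk3b in cerebellum span -3.19 to 0.92, -2.49 to 0.87 and -2.93 to 1.06.

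In hippocampus, Mapt was at 378, 416, 465 and 585 CPM after bulbectomy (libraries 1 to 4) and at 378, 397, 359.7, 335 and 342 CPM after sham (1 to 5). Bulbectomy 2, 3 and 4 lay above every sham library, and bulbectomy 1 within the sham range. The difference was 0.38 ± 0.16 on the log2 scale (95% interval 0.02 to 0.73, edgeR adjusted p = 0.223). It was 0.46 without sham 1 and 2 (adjusted p = 0.196) and 0.36 without sham 1 and 4 (adjusted p = 0.351). Oligodendrocyte markers summed to 4689.8 to 6040.5 CPM after bulbectomy and 3613 to 6498 CPM after sham. Gene by gene, 8 of 9 had positive differences, with a median of 0.27 and none called. Positive differences numbered 6 of 8 for astrocyte (median 0.30), 6 of 10 for pan-neuronal (median 0.12) and 4 of 8 for microglia markers (median 0.06). Their part in the Mapt difference was not tested.

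Map2 was at 138, 144, 92.0 and 159 CPM after bulbectomy and 635, 119.9, 202, 393 and 214 CPM after sham. All 4 bulbectomy libraries lay below 4 of the 5 sham libraries, and sham 2 lay among them. The difference was -1.20 ± 0.44 (95% interval -2.17 to -0.23, edgeR adjusted p = 0.171), larger in size than that of all but 3.21% of the genes tested, and DESeq2 gave -1.22 (adjusted p = 0.0268). The 2 highest libraries, sham 1 and 4, were those with the highest long-minus-short index in hippocampus. They were also the libraries of lowest and highest depth, and the part of depth was not tested. Without them the difference was -0.39 (adjusted p = 0.451), and with the length and GC trend removed it was -0.83 (adjusted p = 0.184). Without sham 1 and 2 it was -0.98 (adjusted p = 0.0524).

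Map1b was at 359, 417, 486 and 569.6 CPM after bulbectomy and 544, 230.4, 345, 363 and 234 CPM after sham. Sham 2 and 5 were the lowest of the 9 and sham 1 the second highest. The difference was 0.45 ± 0.24 (95% interval -0.07 to 0.97, edgeR adjusted p = 0.312). It was 0.80 without sham 1 and 4 (adjusted p = 0.0903) and 0.76 with the length and GC trend removed, the 1 setting of those tried in which it was called (adjusted p = 0.0243). Map1a was at 1692, 1687, 1795 and 1800.3 CPM after bulbectomy and 3156, 1707, 2696, 1883 and 1723 CPM after sham, a difference of -0.32 ± 0.20 (adjusted p = 0.390). Its bulbectomy libraries lay within a narrow range that 3 of the 5 sham libraries adjoined and sham 1 and 3 exceeded. Map4 differed by -0.02 ± 0.18 with a 95% interval of -0.41 to 0.37 (adjusted p = 0.960).

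Of the kinases in hippocampus, Gsk3a was at 324, 310.2, 269 and 309.5 CPM after bulbectomy and 203, 253, 375, 198 and 334 CPM after sham, a difference of 0.18 ± 0.20 (95% interval -0.24 to 0.61). Gsk3b was at 28.4, 40.0, 33.5 and 53.2 and 35.4, 32.2, 37.5, 48.6 and 30.7 CPM, a difference of 0.10 ± 0.20 (95% interval -0.34 to 0.53). The bulbectomy and sham groups overlap for both genes. Cdk5 was at 177, 193, 158 and 158 CPM after bulbectomy and 83.1, 154, 184, 98.1 and 147 CPM after sham. The 2 low sham libraries are again sham 1 and 4, and the difference of 0.39 ± 0.21 (edgeR adjusted p = 0.323) was 0.11 without them. Cdk5r1 differed by 0.20 ± 0.16 (95% interval -0.15 to 0.55) and Cdk5r2 by 0.24 ± 0.23 (95% interval -0.26 to 0.74), the latter by -0.06 without sham 1 and 4. Without sham 1 and 2 the differences were -0.22 for Map1a, 0.59 for Map1b, -0.19 for Map4, 0.046 for Gsk3a, 0.029 for Gsk3b, 0.31 for Cdk5, 0.39 for Cdk5r1 and 0.19 for Cdk5r2, none of them called. With its 4 against 5 libraries the design thus left changes of up to a factor of 1.44 for Gsk3b and 1.67 for Cdk5r2 inside the 95% intervals.

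Dissection markers also differed between the hippocampus groups. Of 10 thalamus and habenula markers tested 5 were called higher after bulbectomy, led by the habenular receptor Gpr151 (4.86 ± 3.11 against 0.358 ± 0.247 CPM), and the list summed to 215 to 407 CPM after bulbectomy and 57.1 to 279 CPM after sham. Of the CA pyramidal cell markers 1 of 8 was called, Pou3f1 (148 ± 14.5 against 82.9 ± 22.4 CPM). The part of these markers in the member values was not tested.

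In cortex, Map4 was the 1 member whose groups did not overlap. It was at 416, 308 and 337 CPM in bulbectomy 1, 2 and 4 and at 478, 425, 445, 462 and 418 CPM in sham 1 to 5. The highest bulbectomy library, 1, and the lowest sham library, 5, lie within 2 CPM of each other. The difference was -0.35 ± 0.16 (95% interval -0.69 to 0.00302, edgeR adjusted p = 0.844). Map2 was at 546, 327 and 125 CPM after bulbectomy, in the order of the long-minus-short index of these 3 libraries, and at 798, 275, 318, 396 and 539 CPM after sham, a difference of -0.49 ± 0.47 (adjusted p = 0.890). Mapt was at 412, 463 and 708 CPM after bulbectomy against 484, 480.2, 509, 483 and 453 CPM after sham. Bulbectomy 4 alone lay above the sham range, and the difference of 0.11 ± 0.18 became -0.16 without it. Map1a differed by -0.34 ± 0.19 (adjusted p = 0.853) and Map1b by -0.12 ± 0.20.

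Gsk3a and Gsk3b in cortex differed by 0.04 ± 0.19 and -0.04 ± 0.23 with 95% intervals of -0.38 to 0.45 and -0.54 to 0.46. Cdk5 was at 96.9, 173 and 193 CPM after bulbectomy and 108, 153, 147, 115 and 111 CPM after sham (0.26 ± 0.21), with the lowest value in bulbectomy 1, the library of highest index in cortex. Cdk5r1 was at 278, 262 and 346 CPM after bulbectomy and 241, 217, 279.5, 229 and 262 CPM after sham (0.25 ± 0.16), and Cdk5r2 differed by 0.10 ± 0.21. Bulbectomy 4, which has the lowest index of the 24 libraries, held the highest value of Cdk5, Cdk5r1 and Cdk5r2 in cortex and of Mapt in the series.

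In cerebellum, with 2 bulbectomy libraries, the groups of Mapt and Map4 did not overlap. Mapt was at 419 and 384 CPM after bulbectomy and 372, 337, 354, 305 and 304 CPM after sham (0.24 ± 0.19, edgeR adjusted p = 1.0). Map4 was at 719 and 806 CPM after bulbectomy and 846, 939, 1184, 840.4 and 1021 CPM after sham (-0.36 ± 0.19, adjusted p = 1.0). Both differences kept their sign without sham 1, at 0.32 and -0.37. The larger differences rested on sham 1. Map2 was at 66.0 and 51.9 CPM after bulbectomy and differed by -1.13 ± 0.89, and by -0.11 without sham 1. Gsk3b was at 27.2 and 19.0 CPM and differed by -0.94 ± 0.87, and by 0.06 without it. Map1b was at 148 and 114 CPM and differed by -0.81 ± 0.73, and by -0.07 without it. Map1a was at 910.4 and 1266 CPM after bulbectomy (-0.35 ± 0.25). Cdk5, Cdk5r1, Cdk5r2 and Gsk3a differed by 0.06 ± 0.36, -0.03 ± 0.23, 0.09 ± 0.25 and 0.08 ± 0.30, and all 10 adjusted p-values rounded to 1.0.

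Whether bulbectomy acted differently between tissues was tested as an interaction in 1 fit of all 24 libraries with edgeR. No member was called, nor was any of the 16564 genes tested (0% called for hippocampus against cortex, for hippocampus against cerebellum and for cortex against cerebellum). At an unadjusted p under 0.05 there were 466, 511 and 276 genes and 0 members, and DESeq2 called 3, 2 and 0 genes and 0 members. The smallest member p belonged to Map1b, whose bulbectomy difference in hippocampus exceeded that in cerebellum by 1.16 ± 0.60 on the log2 scale (edgeR adjusted p = 1.0). In the cerebellum fit the Map1b difference was -0.81 with all libraries and -0.07 without sham 1. The bulbectomy minus sham difference of Mapt was positive, and those of Map2, Map1a and Map4 negative, in all 3 tissues, with no test passed. How many of all genes kept the same sign in all 3 tissues was not counted, so these signs are not read as a result. Map2 in cerebellum was -0.11 without sham 1. Mapt in cortex was negative without bulbectomy 4, and Map4 in hippocampus was positive with the trend removed (0.12), with the block (0.076) and without bulbectomy 4 (0.021).

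Ratios of paired members were taken within each library, per kb, so that library scaling drops out. The log2 ratio of Map1a to Map1b in hippocampus was 2.62, 2.40, 2.27 and 2.04 after bulbectomy and 2.92, 3.27, 3.35, 2.76 and 3.26 after sham. The 2 groups do not overlap. The means were 2.33 ± 0.24 (SD, n = 4) and 3.11 ± 0.26 (SD, n = 5), or 5.03 and 8.65 reads of Map1a per read of Map1b at equal length. The difference was -0.78 (two-sided exact permutation p = 0.0159, the smallest that 4 against 5 allows), and adjusted over the 24 ratio comparisons p = 0.381. It was -0.79 without sham 1 and 2 and -0.96 without sham 1 and 4. In cortex the means were 2.51 ± 0.36 and 2.75 ± 0.21, a difference of -0.24 (exact permutation p = 0.357, n = 3 and 5), and in cerebellum 3.43 ± 0.60 and 3.31 ± 1.02, a difference of 0.11 (exact permutation p = 0.952, n = 2 and 5, where the smallest possible is 0.0952). The cerebellar difference was -0.33 without sham 1.

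**Figure D5:**
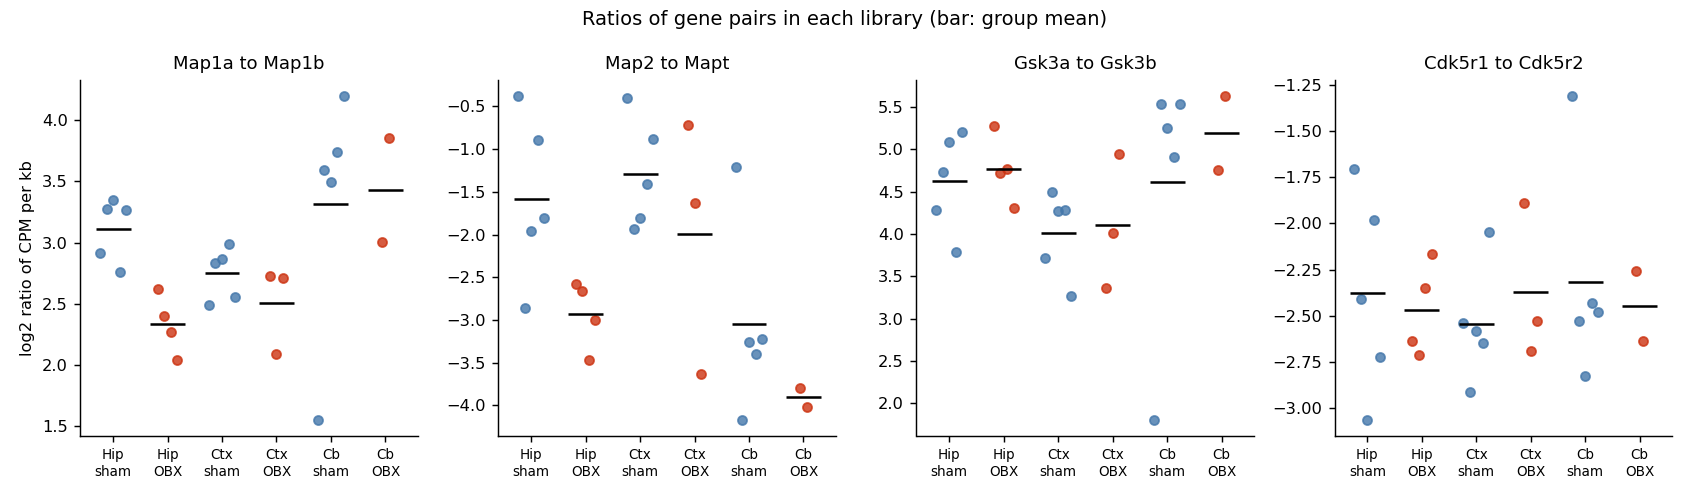
Log2 ratio of CPM per kb of 4 gene pairs in each library, in hippocampus (Hip), cortex (Ctx) and cerebellum (Cb) after sham (blue) or bulbectomy (OBX, red), with a bar at the group mean. The 4 hippocampus bulbectomy libraries lie between 2.04 and 2.62 for Map1a to Map1b, below all 5 sham libraries.

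The log2 ratio of Map2 to Mapt in hippocampus was -2.58, -2.66, -3.46 and -3.00 after bulbectomy and -0.38, -2.86, -1.96, -0.90 and -1.80 after sham. Sham 2 lay within the bulbectomy range and the other 4 above it. The difference was -1.35 (exact permutation p = 0.0476, adjusted p = 0.381, n = 4 and 5), and -0.72 without sham 1 and 4. Between sham cortex and sham cerebellum it differed by 1.76 (exact permutation p = 0.0317, adjusted p = 0.381, n = 5 and 5). The other 2 ratios gave exact p-values of 0.103 to 1. Gsk3a exceeded Gsk3b in every library, by a factor of 3.50 in cerebellum sham 1 and of 9.64 to 49.5 elsewhere. Reads of Gsk3a may be missing in the overlap named above. The lowest log2 ratios were those of high-index libraries, at 1.81 in cerebellum sham 1, 3.27 and 3.71 in cortex sham 5 and 1, 3.36 in cortex bulbectomy 1 and 3.79 in hippocampus sham 4. Hippocampus sham 1, also of high index, was at 4.28. Gsk3a has 2.9 kb of exon and Gsk3b 9.83 kb, and the part of length in this ratio was not tested. The ratio of Cdk5r1 to Cdk5r2 had group means of 0.171 to 0.201 in all 6 groups, although both genes differed several-fold between cortex and cerebellum. Single libraries ranged from 0.120 to 0.307 in hippocampus sham and from 0.141 to 0.403 in cerebellum sham. Cerebellum sham 1 was the exception among the 5 libraries of its group, with a log2 ratio of -1.31 against -2.83 to -2.43 in the other 4. None of the 24 ratio comparisons passed after adjustment. The smallest possible exact permutation p was 0.00794 for 5 against 5 libraries, 0.0159 for 4 against 5, 0.0357 for 3 against 5 and 0.0952 for 2 against 5. No comparison could pass alone after adjustment over 24, so the adjusted values cannot tell whether a single ratio differed.

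None of the 117 genes of the 7 pathway lists tested was called after bulbectomy in any tissue by edgeR with all libraries and no correction. At an unadjusted p under 0.05 there were 29 of them in hippocampus (2794 of 13985 over all genes), 11 in cortex (877 of 14847) and 3 in cerebellum (454 of 15295). In hippocampus DESeq2 called 9 of the 117 (7.69%), 4 higher and 5 lower, where it called 6.82% of all genes, and it called 0 in cortex and cerebellum. With the length and GC trend removed 2 were higher and 4 lower in hippocampus (5.13%, against 3.27% of all genes). In hippocampus all 12 tubulins had positive differences, with a median of 0.46 against 0.02 over all genes, led by Tuba1b (515 ± 94.7 against 329 ± 110.1 CPM, edgeR adjusted p = 0.135). At an unadjusted p under 0.05 there were 5 tubulins, and 1 with the length and GC trend removed. In cortex 9 of 12 and in cerebellum 5 of 12 were positive. All 9 CDK5 cofactors and calpain genes were positive in hippocampus, with a median of 0.15, and 5 of 9 in the other 2 tissues. Capns1, the calpain regulatory subunit, had the smallest p of the list (490.3 ± 44.3 against 293 ± 75.7 CPM, adjusted p = 0.0574). The other 4 lists of kinases, phosphatases, GSK3 regulators and microtubule regulators had medians of -0.10 to -0.09 in hippocampus. Prkacb, a catalytic subunit of protein kinase A, was at 70.7 ± 16.1 against 141 ± 44.2 CPM (adjusted p = 0.0509) and Clasp2, a microtubule plus-end protein, at 36.6 ± 4.65 against 68.1 ± 19.9 CPM (adjusted p = 0.0533). Chaperones and modifying enzymes had a median of -0.02 and were led by the acetyltransferase Ep300 (10.1 ± 1.29 against 22.5 ± 11.8 CPM, adjusted p = 0.0835). Without hippocampus sham 1 and 2, 1 kinase was called higher and 1 microtubule regulator lower, and without sham 1 and 4 none was called.

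The genes whose profile over the 24 libraries was most like that of Mapt, by the root mean square difference of centred log2 CPM, were Atxn7l3b (0.141), Apba2 (0.166), Rtn1 (0.173), Angel2 (0.181) and Lyrm9 (0.184), among 13512 genes with a median of 0.544. Apba2 encodes an adaptor that binds the amyloid precursor protein. Apba2 had mean levels of 188 CPM in sham cortex, 149 in sham hippocampus and 146 in sham cerebellum. Within the family Gsk3a was nearest to Mapt (0.359, rank 997), followed by Map1a (0.452) and Cdk5 (0.455), and Map2 was farthest (1.16, rank 12990). These measures describe 24 libraries of 3 tissues whose depth and long-minus-short index differ, and carry no test.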

How the data were processed

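The data are read counts per gene deposited by the authors for each of 24 libraries, in whole numbers without normalization. Per the labels' protocols, RNA of integrity number 8 or more was made into directional polyA libraries and sequenced single-end. The submitters' processing notes name Trimmomatic, STAR, featureCounts and mm10, while the sources used here give neither versions nor the strand setting. Rows for reads in no feature (2.62% to 9.22%) or ambiguous (3.92% to 5.08%) were left out. These shares are of the assigned, no-feature and ambiguous reads together. Bulbectomy 3 of cortex, and 3 and 4 of cerebellum, are not analysed here. Gene models, exon lengths and overlaps came from GENCODE M21 (GRCm38).

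CPM used TMM-scaled library sizes over all 24 libraries. Groups came from the labels and replicate numbers from the titles. Bulbectomy was compared with sham within each tissue, sham tissues were compared in a fit of 15 libraries, and the difference of the bulbectomy effect between tissues in a fit of 24, each with edgeR 4.0.16 (filterByExpr, TMM, glmQLFit, R 4.3.3) and Benjamini-Hochberg adjustment over all genes tested. Log2 differences are given with SE and 95% intervals from that fit. DESeq2 1.42.0 was an alternative, and the scripts were checked on simulated data. Ratios were compared by exact permutation tests (SciPy 1.17.1), two-sided, adjusted over the 24 comparisons.

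The members and gene lists were chosen with earlier results of these data known. Of each list and comparison, the called genes with the largest difference in each direction could be named, or else the gene of smallest p. Deviations of same-numbered sham libraries in hippocampus and cerebellum from their group means correlated at 0.52, 0.41, 0.58, 0.24 and 0.34. Hippocampus sham 4 correlated best with cerebellum sham 1, and the other numbers with their own. Number 5 correlated at -0.22 between hippocampus and cortex and at -0.30 between cortex and cerebellum. The labels do not name animals, so pairing by number is uncertain and the block was run as an alternative only.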

Additional observations from a re-analysis of the deposited data

Results flagged for a closer look

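Of 56 groups of 4 or 5 libraries tested, 6 held 1 library far from the rest by Dixon's test at 95%, which chance alone gives for about 1 group in 20. All 6 involve cerebellum sham 1, the library with the highest long-minus-short index. Its Map2 level was 353 CPM, against 41.0 to 80.8 CPM in the other 4 cerebellum sham libraries. Its Map1b level was 538 CPM, against 106 to 219.7 CPM. Its Gsk3b level was 119.8 CPM, against 19.0 to 28.2 CPM. In the same library the log2 ratio of Gsk3a to Gsk3b was 1.81, against 4.91 to 5.53. The log2 ratio of Cdk5r1 to Cdk5r2 was -1.31, against -2.83 to -2.43, and that of Map1a to Map1b was 1.55, against 3.50 to 4.20. Mapt, at 372 CPM there, did not stand apart from the other 4 by the same test.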

How the results depend on the processing

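The alternatives were RLE scaling, DESeq2, no filter on low counts, removal of a trend across exon lengths and GC content, the replicate numbers as a block, other sets of libraries in 1 fit, and leaving libraries out. Leaving out the 3 sham libraries numbered 1, or hippocampus sham 1 and 4 together, was chosen after seeing the data. Where a direction or count moved, the cause was not tested.

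In hippocampus after bulbectomy 217 genes were called, against 954 with DESeq2, 458 with the trend removed, 76 with the block, 348 without sham 1 and 2, 68 without sham 1 and 4, and 30 to 477 on leaving out 1 library. Members called were 1 with DESeq2 (Map2), 1 with the trend removed (Map1b), and 0 in the other settings. In cortex 3 genes were called, against 7 with RLE scaling, 39 with DESeq2, 24 without the filter, 7 with the trend removed, 13 with the block, 5 with all 24 libraries in 1 fit, and 1 to 573 on leaving out 1. In cerebellum 2 were called, against 12 with DESeq2, 0 with the block, and 0 to 36 on leaving out 1, where a lone bulbectomy library is assumed to vary like the sham group. For the interactions with hippocampus, DESeq2 called 3 genes against cortex and 2 against cerebellum, and leaving out 1 library gave 0 to 1 and 0 to 2.

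Between sham hippocampus and cortex 500 genes were called, against 895 with DESeq2, 899 with the trend removed, 765 with the block, 215 without hippocampus sham 1 and 4, 755 without the 3 sham libraries numbered 1, 865 with 2 tissues in the fit, and 284 to 1101 on leaving out 1. Members called there were 1, against 0 with RLE scaling, 2 with DESeq2, 0 without the filter, 2 with the trend removed, 3 with the block, 2 without hippocampus sham 1 and 2, 0 without sham 1 and 4, 2 without the libraries numbered 1, and 0 to 3 on leaving out 1. Between hippocampus and cerebellum they were 4, against 7 with the trend removed, 7 without the libraries numbered 1, and 4 to 7 on leaving out 1. Over all genes 4296 were called there, and 3727 to 6027 on leaving out 1.

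Directions that turned belonged to differences not called with all libraries. With the trend removed they were, after bulbectomy, Map4 (0.12) and Gsk3a (-0.025) in hippocampus, Map1b (0.031), Gsk3a (-0.11), Gsk3b (0.076) and Cdk5r2 (-0.052) in cortex, and Cdk5 (-0.034) in cerebellum. Between sham tissues they were Cdk5 against cortex (-0.15) and Gsk3b against cerebellum (0.13), both for hippocampus. Without hippocampus sham 1 and 4 they were Gsk3a (-0.051) and Cdk5r2 (-0.058) after bulbectomy and Gsk3a against cortex (0.076). Without the libraries numbered 1, Cdk5 in cortex against cerebellum was -0.10, Gsk3b in hippocampus against cerebellum 0.82, and the cerebellar Map1a to Map1b difference -0.33.

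With the replicate block the reversed values were Map4 in hippocampus (0.076), Gsk3a (-0.032) and Gsk3b (0.027) in cortex after bulbectomy, Cdk5 in sham hippocampus against cortex (-0.0041) and Gsk3b in sham hippocampus against cerebellum (0.27). Between cortex and cerebellum the block raised the members called from 7 to 9, adding Gsk3a (0.49) and Gsk3b (1.01). Of the 118 list genes it called 37 higher and 17 lower, against 29 and 14 without the block. Outside sham hippocampus against cerebellum, no comparison with 3 or more pairs had same-numbered libraries that deviated together in every pair. In cerebellum bulbectomy against sham, numbers 1 and 2 correlated at 0.47 and 0.36, each best with its own number, though those libraries differ in operation. In cortex against cerebellum every sham number except 5 correlated best with its own number, which is a hint from the data and not from the design.

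On leaving out 1 library, the values after bulbectomy ranged over -0.14 to 0.021 for Map4 and -0.085 to 0.23 for Gsk3b in hippocampus. In cortex they ranged over -0.16 to 0.24 for Mapt, -0.22 to 0.024 for Map1b, -0.16 to 0.18 for Gsk3a, -0.27 to 0.15 for Gsk3b, -0.11 to 0.32 for Cdk5r2 and -1.34 to 0.11 for the Map2 to Mapt difference. In cerebellum they ranged over -0.082 to 0.24 for Gsk3a, -1.23 to 0.065 for Gsk3b, -0.13 to 0.18 for Cdk5, -0.15 to 0.095 for Cdk5r1, -0.037 to 0.17 for Cdk5r2 and -0.33 to 0.54 for the Map1a to Map1b difference. Between sham tissues Cdk5 ranged over -0.077 to 0.17 for hippocampus against cortex, -0.074 to 0.25 for hippocampus against cerebellum and -0.14 to 0.20 for cortex against cerebellum, and Gsk3b over -0.31 to 0.81 for hippocampus against cerebellum.

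Of the alternative values of the 12 member differences called between sham tissues, 255 kept the call and 19 lost it, and none turned direction. Of the alternative values of sham differences not called, 30 gained a call, and with the trend removed 10 of 10 members were called for cortex against cerebellum, against 7. The same correction called 41 of the 118 list genes higher and 13 lower, against 29 and 14. With 2 tissues in the fit the 1 member called between hippocampus and cortex was Gsk3b (-0.74) in place of Mapt. Of the member differences not called after bulbectomy, 2 alternative values passed the threshold, both in hippocampus. Every member had at least 120 reads in each library, and the precision is limited by the spread between libraries and by the number of libraries, 2 to 5 a group.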
